A study of Mus musculus with 20 samples.

Results

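Serpins are a family of proteins that share 1 fold and, in most members, trap the protease they inhibit. An exposed loop, the reactive centre loop, is offered as bait, the protease cuts it, and the loop then folds into the body of the serpin with the protease still bound. The residue just before the cut, called P1, sets much of which protease is caught. Hepatocytes make most of the serpins of blood plasma, among them the α1-antitrypsins, antithrombin, α2-antiplasmin and the C1 inhibitor, and some members have turned to other work, such as carrying hormones or folding collagen. The gene table of the study was searched for protein coding genes whose symbol is Serpin followed by a clade letter from a to i and a number. The 60 genes described here come from 38924 in the table, of which 22572 are protein coding, and 3 further rows with a serpin symbol were left out because the table gives them another gene type.

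RNA was sequenced from the livers of 20 male mice, 5 per group, bought at 5 weeks of age, kept 1 week before the diets began and fed for 12 weeks. The groups are WT mice (C57BL/6J) on control diet (NDWT), TSP-1 null mice on control diet (NDKO), WT mice on CDAHFD (HFWT) and TSP-1 null mice on CDAHFD (HFKO). CDAHFD is a diet high in fat that lacks choline, holds little methionine and supplies defined L-amino acids. It is used to bring on steatohepatitis and fibrosis. TSP-1 is thrombospondin-1, a matrix protein that helps to activate TGF-β1. The null animals, labelled as TSP-1 knockout, were bought as a stock of their own. Whether they are related to the WT mice by litter is not given in the sources used here. The methods name the right lateral lobe of the liver as the source of the RNA, and the description of the series names the right medial lobe. Libraries held 15641539 to 23276333 fragments assigned to genes, and levels are given in FPKM, fragments scaled to gene length and library size, which can be compared between genes. Where nothing else is said, a mean is given ± SD of 5 mice. Log2 differences were taken on log2(FPKM + 0.1), and a gene is called where the limma FDR over all 14524 genes tested is under 0.05 and the difference exceeds 0.58 in either direction.

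Of the 60 serpin genes, 28 had FPKM above 0.5 in at least 5 libraries and were tested. Of the other 32, 21 never exceeded 3 fragments in a library, 15 of these without any, and 11 held more. A gene that passed this filter through the group where it was high had to differ between groups, so the counts below describe the tested members and not the family. Serpin genes together took 2.64% ± 0.231 of all assigned fragments in NDWT (SD, n = 5) and 1.18% ± 0.118 in HFWT, and 2.98% ± 0.243 in NDKO and 1.31% ± 0.134 in HFKO. Liver identity was clear from the 7 hepatocyte markers in the table, whose FPKM summed to 28193 to 48104 in every library, while pancreatic acinar and squamous markers summed to at most 0.561 and 0.127.

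The label of the null groups was set beside the RNA of Thbs1, the gene for TSP-1, which ran against the label on the control diet. RNA of the gene does not show whether the protein was made, so these values cannot decide whether the labels are right. Thbs1 read 0.17, 0.326, 0.268, 0.058 and 0.165 FPKM in the NDWT libraries and 1.005, 1.5, 0.986, 1.895 and 1.13 in those labelled NDKO, so that every library labelled null lay above every WT library (log2 difference 2.28, SE 0.24, FDR 1.02e-05). On CDAHFD the HFWT libraries read 5.77, 6.099, 3.46, 3.91 and 3.86 and the HFKO libraries 3.304, 3.32, 3.05, 3.14 and 4.398 (log2 -0.39, SE 0.24, FDR 0.408). The genotype labels did separate the libraries in another respect, chosen after the values were seen. The mitochondrial tRNA genes mt-Tg and mt-Tr had 0 fragments in each of the 10 libraries labelled null and at least 1 in each of the 10 WT libraries. Null mice are those whose libraries are labelled TSP-1 null, and every direction between genotypes rests on that label.

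Serpin bait loops are shown first because the 5 α1-antitrypsin genes of the mouse, Serpina1a to Serpina1e, are near copies, and their loops differ. The windows below are coding sequence from the GENCODE M21 transcripts, 20 codons from the start of the loop, on the minus strand of GRCm38 at chr12:103853771-103853830, chr12:103728338-103728397, chr12:103895108-103895167, chr12:103763776-103763835 and chr12:103947114-103947173, each inside the last exon. Capitals mark the bases that are not the same in all 5 genes, and bases 43 to 45 are the P1 codon.
Serpina1a: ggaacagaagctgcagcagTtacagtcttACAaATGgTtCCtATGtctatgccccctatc
Serpina1b: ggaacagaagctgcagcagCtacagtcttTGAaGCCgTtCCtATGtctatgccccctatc
Serpina1c: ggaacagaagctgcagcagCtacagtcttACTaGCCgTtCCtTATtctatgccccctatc
Serpina1d: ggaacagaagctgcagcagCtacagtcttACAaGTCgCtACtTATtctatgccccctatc
Serpina1e: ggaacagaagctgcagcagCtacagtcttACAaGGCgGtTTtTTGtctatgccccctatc
Of the 13 bases that vary, 12 lie in codons 9 to 16 and 1 in the first 8. The P1 codon is atg in Serpina1a and Serpina1b, tat in Serpina1c and Serpina1d, and ttg in Serpina1e. Over the last 1242 bases of coding sequence the 5 genes are 96.3% to 98.5% identical in pairs, and 57.4% to 82.8% of the 31-base words of each occur in another serpin gene. Reads that fit more than 1 copy could have been given to the wrong copy or left out of the counting. How they were handled is not given in the sources used here, and the level of each single gene is uncertain. The annotated span of Serpina1b also covers Serpina1d.

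The 5 genes share their proximal upstream sequence as well, which is shown because all 5 were lower on CDAHFD in WT mice. The windows are RefSeq promoter sequence (GRCm38.p6, minus strand) at chr12:103863625-103863720, chr12:103738200-103738295, chr12:103904962-103905057, chr12:103773634-103773729 and chr12:103956960-103957055, aligned without gaps on the motif GTTAAT, in capitals, letters that occur in the site the liver factor HNF1 is known to bind.
Serpina1a upstream: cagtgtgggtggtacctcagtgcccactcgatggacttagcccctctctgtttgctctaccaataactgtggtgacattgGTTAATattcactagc
Serpina1b upstream: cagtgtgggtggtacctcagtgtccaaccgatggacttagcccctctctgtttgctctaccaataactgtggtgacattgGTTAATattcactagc
Serpina1c upstream: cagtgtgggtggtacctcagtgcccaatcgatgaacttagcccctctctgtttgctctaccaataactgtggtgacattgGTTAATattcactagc
Serpina1d upstream: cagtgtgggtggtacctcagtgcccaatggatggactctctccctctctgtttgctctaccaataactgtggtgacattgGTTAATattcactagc
Serpina1e upstream: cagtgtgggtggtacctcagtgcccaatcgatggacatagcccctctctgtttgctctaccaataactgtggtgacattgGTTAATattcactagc
Of these 96 bases, 86 are the same in all 5 genes. The motif begins 16 to 27 bases before the RefSeq start of Serpina1a to Serpina1d and 78 bases before that of Serpina1e. On either strand GTTAAT occurs in 7.1% of the 32851 promoter windows of 300 bases in the table and in those of 11 of the 52 serpin genes that the table holds. The percentage counts windows and the serpin figure counts genes, so they cannot be set against each other. The 5 near copies shown here are among the 11, and enrichment of the motif in serpin genes was not tested.

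Serpin genes were called in both directions on CDAHFD. In WT mice 18 of the 28 tested serpin genes were called, 8 higher and 10 lower on CDAHFD, where 48.8% of all tested genes were called, 44.1% higher and 4.62% lower. In TSP-1 null mice 17 were called, 9 higher and 8 lower, against 45.9% of all tested genes, 41.9% higher and 4.0% lower. The lower calls thus made up 35.7% and 28.6% of the tested serpin genes. Of these calls, 5 in WT and 4 in null mice were of the near copies Serpina1a to Serpina1e, whose calls may not be independent. The median log2 difference of the tested serpin genes was -0.0417 in WT and -0.0949 in null mice, while that of all tested genes was 0.53 and 0.50. Under median of ratios scaling, which moves the median of all genes by -0.54 and -0.51, the split became 6 higher and 14 lower in WT and 8 higher and 14 lower in null mice, against 3299 higher and 2242 lower over all genes in WT and 3225 and 1980 in null mice. In WT the values of HFWT and NDWT did not overlap for 16 of the 28 genes, against 56.2% of all tested genes, and in null mice for 20, against 57.8%.

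**Figure D1:**
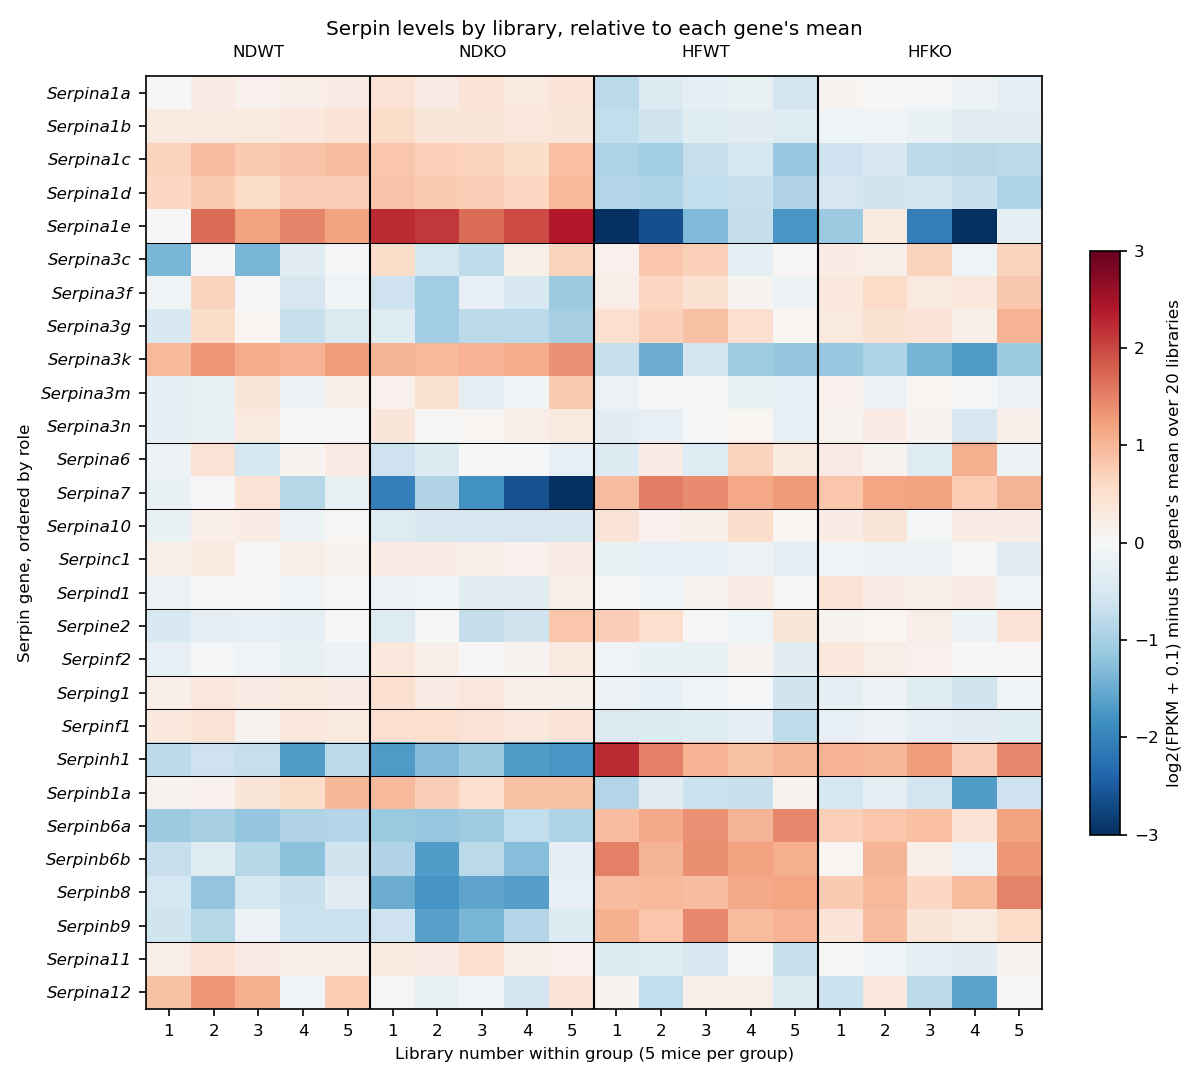
Each row is 1 of the 28 tested serpin genes and each column 1 library, in the order NDWT, NDKO, HFWT, HFKO with 5 mice each, and the colour is log2(FPKM + 0.1) less the mean of that gene over the 20 libraries, with colours limited at 3 in either direction. Serpina1c, Serpina1d, Serpina1e and Serpina3k are lower in the CDAHFD columns, while Serpina7, Serpinh1 and the clade B genes other than Serpinb1a are higher.

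All 5 tested α1-antitrypsin genes were called lower in WT mice on CDAHFD, and 4 of the 5 in null mice, where Serpina1a was not called. In null mice Serpina1a turned positive under quantile normalization (0.21) and was called lower under median of ratios scaling (-0.97, FDR 4.85e-07). α1-Antitrypsin is the main plasma inhibitor of neutrophil elastase, and the mouse genes differ in the proteases they catch. The largest log2 difference among the tested serpin genes that fell was that of Serpina1e (ENSMUSG00000072849.4, GRCm38 chromosome 12, 103946931 to 103958975, minus strand). It read 868, 2723, 1988, 2367 and 1991 FPKM in NDWT and 105, 139, 343, 522 and 258 in HFWT. In the null libraries it read 4079, 3725, 2745, 3331 and 4564 on control diet and 405, 1057, 202, 80.6 and 704 on CDAHFD. Control and CDAHFD values did not overlap in either genotype, and in both CDAHFD groups the range between libraries was wider than the group mean. Its log2 difference was -3.0 (SE 0.55, FDR 6.3e-05) in WT and -3.39 (SE 0.55, FDR 1.67e-05) in null mice.

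Serpina1c (ENSMUSG00000079015.2, GRCm38 chromosome 12, 103894926 to 103904887, minus strand) fell with far less spread between mice. Its 5 NDWT values were 748, 879.7, 795, 838 and 874 FPKM and its HFWT values 243, 224, 287, 319 and 211. The NDKO libraries read 818, 760.4, 749, 682 and 863 and the HFKO libraries 299, 334, 266, 259 and 269. Every CDAHFD library lay below every control diet library. The log2 difference of Serpina1c was -1.7 (SE 0.10, FDR 4.23e-11) in WT and -1.44 (SE 0.10, FDR 5e-10) in null mice. An antisense gene, B430119L08Rik, overlaps Serpina1c, and the strand setting of the counting is not given in the sources used here.

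Serpina1d (ENSMUSG00000071177.4, GRCm38 chromosome 12, 103763594 to 103773592, minus strand) had 1534 ± 104 FPKM in NDWT and 537 ± 43.7 in HFWT, a log2 difference of -1.51 (SE 0.08, FDR 1.3e-11). In null mice Serpina1d went from 1656 ± 139 to 607 ± 63.8 FPKM, or -1.45 (SE 0.08, FDR 3.11e-11). Serpina1b (ENSMUSG00000071178.5, GRCm38 chromosome 12, 103728156 to 103830373, minus strand), the most abundant of the 5 on CDAHFD, fell by less. It had 2542 ± 103 FPKM in NDWT and 1473 ± 173 in HFWT (log2 -0.79, SE 0.08, FDR 5.33e-08), and 2700.0 ± 185 in NDKO against 1768 ± 118 in HFKO (log2 -0.61, SE 0.08, FDR 1.88e-06), a call lost without NDKO replicate 1 (-0.57) and under quantile normalization (-0.22). Serpina1a (ENSMUSG00000066366.8, GRCm38 chromosome 12, 103853589 to 103863562, minus strand) had the smallest difference of the 5. Its level was 841 ± 57.9 FPKM in NDWT and 556 ± 90.6 in HFWT (log2 -0.61, SE 0.10, FDR 1.56e-05), a call lost without HFWT replicate 1 (-0.52) or 5 (-0.5797) and under quantile normalization (-0.30). In null mice Serpina1a went from 956 ± 49.97 to 709.9 ± 66.6 FPKM, where the difference of -0.43 (SE 0.10, FDR 0.000584) missed the fold threshold.

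The mix of the 5 genes shifted with their sum. Summed over Serpina1a to Serpina1e, the level was 7731 ± 901 FPKM in NDWT and 3097 ± 479 in HFWT, and 9775 ± 976 in NDKO and 3860 ± 519 in HFKO. Serpina1e made up 25.1% ± 6.82 of that sum in NDWT and 8.34% ± 4.0 in HFWT, and 37.5% ± 3.75 in NDKO and 11.9% ± 8.65 in HFKO. These shares were not tested. In single HFKO libraries its share ran from 2.48% to 22.8%. The share of Serpina1b went the other way, from 33.2% ± 3.88 in NDWT to 47.8% ± 2.90 in HFWT and from 27.8% ± 2.24 in NDKO to 46.2% ± 4.21 in HFKO. Serpina1d took 19.99% ± 1.84 in NDWT and 15.9% ± 2.29 in HFKO, the highest and lowest of its 4 group means. The sum depends less than each gene on reads given to the wrong copy, but reads left out of the counting would be missing from it too. The sixth gene of the group by symbol, Serpina1f, had no fragment in any library.

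**Figure D2:**
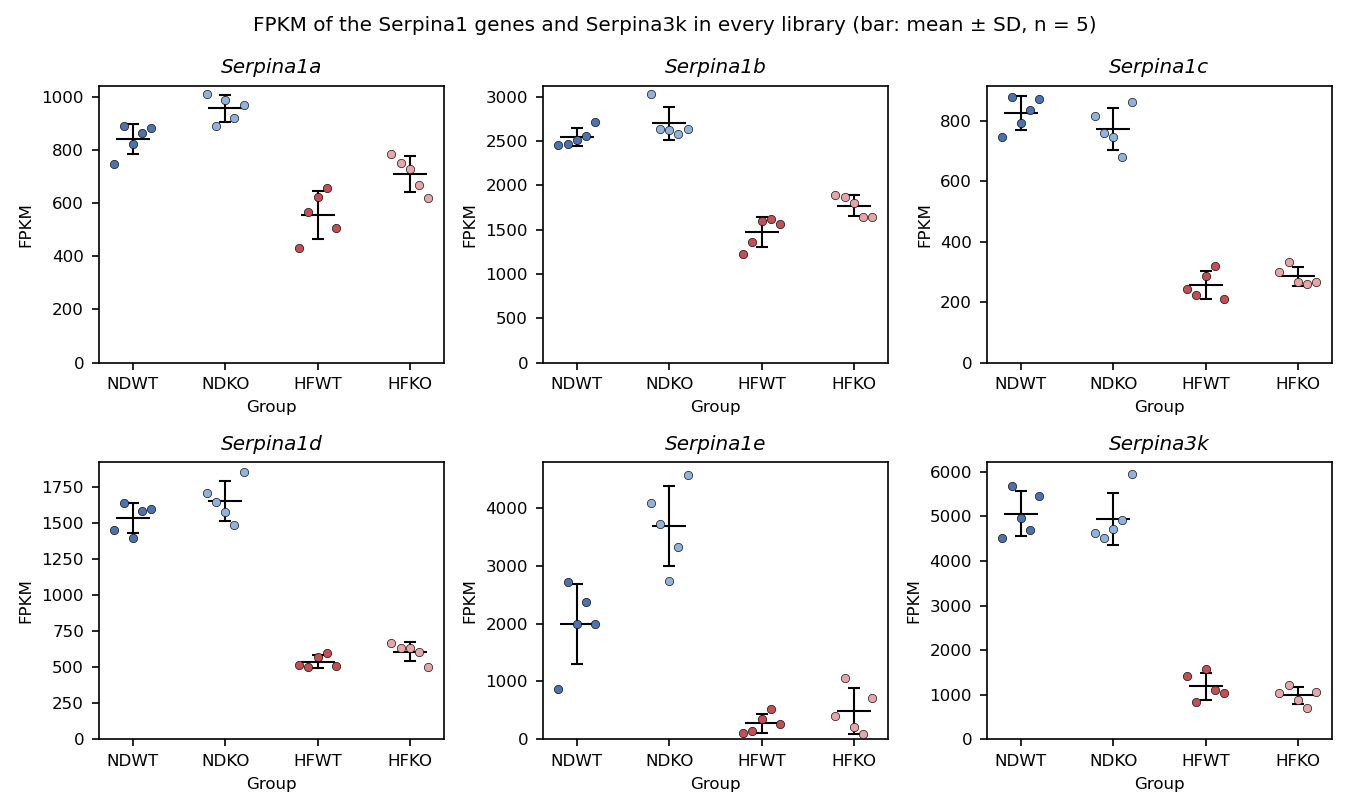
FPKM (vertical axes, from 0) of Serpina1a to Serpina1e and Serpina3k in each of the 20 libraries, with the 4 groups along the horizontal axes, points for libraries and bars for the mean ± SD of 5 mice. Serpina1c, Serpina1d and Serpina3k separate by diet with little spread, and Serpina1e spreads from 80.6 to 1057 FPKM in HFKO.

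The Serpina3 cluster, which in the mouse holds many relatives of human α1-antichymotrypsin, did not move as 1 group. Of its 10 genes, 6 were tested, and in each genotype 2 were called higher and 1 lower. The shares of all tested genes were 44.1% higher and 4.62% lower in WT, and 41.9% and 4.0% in null mice. The bait loops of 3 neighbours on the plus strand of chromosome 12 are shown with the P1 codon in capitals, since these genes lie side by side and 1 of the 3 was called. They stand at chr12:104345269-104345328, chr12:104393769-104393828 and chr12:104413448-104413507 of GRCm38, each in exon 5.
Serpina3k: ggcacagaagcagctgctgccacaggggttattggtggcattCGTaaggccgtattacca
Serpina3m: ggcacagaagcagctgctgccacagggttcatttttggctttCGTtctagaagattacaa
Serpina3n: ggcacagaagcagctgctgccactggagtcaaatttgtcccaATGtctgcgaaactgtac
Serpina3k and Serpina3m share 366 of their 31-base words, 29.8% of each, and Serpina3k and Serpina3n share 18, 1.5% of each. The annotated span of Serpina3m covers Serpina3k, so fragments of Serpina3m may be affected by its abundant neighbour.

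Serpina3k (ENSMUSG00000058207.5, GRCm38 chromosome 12, 104338486 to 104345741, plus strand), a plasma inhibitor that binds tissue kallikrein, was the most abundant serpin gene on the control diet. It read 4519, 5695, 4965, 4694 and 5459 FPKM in NDWT and 1423, 825, 1564, 1092 and 1028 in HFWT. The NDKO libraries read 4638, 4506, 4723, 4928 and 5950.0 and the HFKO libraries 1041, 1216, 874, 701 and 1066. The lowest control diet library held more than the highest CDAHFD library in both genotypes. The log2 difference of Serpina3k was -2.13 (SE 0.16, FDR 6.94e-10) in WT and -2.35 (SE 0.16, FDR 2.2e-10) in null mice.

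Serpina3n (ENSMUSG00000021091.8, GRCm38 chromosome 12, 104406729 to 104414329, plus strand), an inhibitor of granzyme B that many tissues raise in inflammation, was not called in any comparison. It read 212, 222, 316, 250.0 and 254 FPKM in NDWT and 207, 216, 245, 265 and 216 in HFWT. It read 329, 258, 265, 293 and 311 in NDKO and 275, 306, 270.1, 181 and 286 in HFKO. The values of all 4 groups overlapped. Its log2 difference was -0.12 (SE 0.13, FDR 0.423) in WT and -0.16 (SE 0.13, FDR 0.275) in null mice, and under median of ratios scaling it was called lower in WT (-0.68, FDR 0.000225) and in null mice (-0.70, FDR 0.000189). Serpina3m was not called either, with 94.01 ± 18.8 FPKM in NDWT and 87.3 ± 7.07 in HFWT, and 113 ± 34.4 in NDKO and 92.4 ± 8.85 in HFKO, although it was called lower under median of ratios scaling in WT (-0.65, FDR 0.00132) and in null mice (-0.78, FDR 0.000255).

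The 3 less abundant tested members of the cluster had higher means on CDAHFD. Serpina3g (ENSMUSG00000041481.10, GRCm38 chromosome 12, 104236245 to 104241939, plus strand), which can inhibit lysosomal cysteine cathepsins inside cells, had 8.23 ± 3.07 FPKM in NDWT and 13.1 ± 2.76 in HFWT (log2 0.71, SE 0.21, FDR 0.00543). In null mice Serpina3g went from 5.18 ± 1.06 to 12.7 ± 3.28 FPKM (log2 1.27, SE 0.21, FDR 2.64e-05). Its WT difference was close to the 0.53 median of all genes and was not called under median of ratios scaling (0.16, FDR 0.519). Serpina3f (ENSMUSG00000066363.6, GRCm38 chromosome 12, 104214544 to 104221129, plus strand) was called higher in null mice alone, 1.15 (SE 0.20, FDR 4.24e-05), a call lost under quantile normalization (0.45), where WT mice gave 0.25 (SE 0.20, FDR 0.263), negative under median of ratios scaling (-0.29). Serpina3c (ENSMUSG00000066361.3, GRCm38 chromosome 12, 104146382 to 104153870, minus strand) was called higher in WT mice, 0.91 (SE 0.35, FDR 0.0233), at a mean of only 0.222 ± 0.137 FPKM in NDWT and 0.481 ± 0.192 in HFWT, and its direction turned under quantile normalization (-0.60). That Serpina3c call was also lost without NDWT replicate 1 (0.73) or 3 (0.72), without HFWT replicate 2 (0.77) or 3 (0.81), with a pseudocount of 1 (0.28) and under median of ratios scaling (0.4956, FDR 0.234). In null mice the Serpina3c difference was 0.29 (SE 0.35, FDR 0.457), negative under that scaling (-0.13). The pseudogene Serpina3h overlaps Serpina3g on the same strand.

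Of the hormone carriers, the thyroxine-binding globulin gene Serpina7 changed and the corticosteroid-binding globulin gene Serpina6 did not pass the test. Serpina7 (ENSMUSG00000031271.8, GRCm38 chromosome X, 139079257 to 139085236, minus strand) read 7.93, 9.13, 12.3, 5.02 and 7.78 FPKM in NDWT and 17.4, 26.4, 24.6, 20.4 and 22.3 in HFWT. In the libraries labelled null it read 2.14, 4.82, 2.49, 1.41 and 0.97 on control diet and 16.3, 20.8, 21.1, 15.4 and 18.5 on CDAHFD. The 4 groups stood in the order NDKO, NDWT, then the CDAHFD groups, whose values overlapped each other and no control diet library. The diet difference of Serpina7 was 1.43 (SE 0.29, FDR 0.000212) in WT and 3.09 (SE 0.29, FDR 1.83e-08) in null mice. Serpina6 had 49.7 ± 12.1 FPKM in NDWT and 53.1 ± 16.9 in HFWT, and 40.4 ± 6.83 in NDKO and 57.8 ± 25.1 in HFKO, with overlap between all groups. For 7 genes of thyroid hormone and glucocorticoid handling the median was -0.35 in WT and -0.15 in null mice, where all genes had 0.53 and 0.50. In WT 3 of the 7 were called lower and in null mice 0, beside 4.62% and 4.0% of all tested genes. The 3 were Hsd11b1, which regenerates active glucocorticoid (log2 -0.72, SE 0.09, FDR 8.39e-07), the thyroid hormone receptor gene Thrb (log2 -0.70, SE 0.12, FDR 2.28e-05) and the deiodinase gene Dio1 (log2 -0.75, SE 0.24, FDR 0.00811).

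Of the clotting inhibitors, 3 of 4 were tested and 1 was called, in null mice. The bait loop of antithrombin, the plasma inhibitor of thrombin and factor Xa, lies in exon 8 on the plus strand of GRCm38 at chr1:161002299-161002358, and is given with its P1 codon in capitals as that of the main clotting inhibitor of the family.
Serpinc1: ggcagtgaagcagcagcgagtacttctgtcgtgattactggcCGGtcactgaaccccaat
Serpinc1 (ENSMUSG00000026715.7, GRCm38 chromosome 1, 160978606 to 161003010, plus strand) had 819 ± 52.4 FPKM in NDWT and 623 ± 21.9 in HFWT, and 842 ± 23.5 in NDKO and 664 ± 57.8 in HFKO. Control and CDAHFD values did not overlap in either genotype, yet the log2 differences of -0.39 (SE 0.06, FDR 1.78e-05) in WT and -0.35 (SE 0.06, FDR 8.06e-05) in null mice stayed inside the fold threshold. Under median of ratios scaling Serpinc1 was called lower in WT (-0.95, FDR 1.9e-09) and null mice (-0.88, FDR 7.11e-09), and under quantile normalization its sign in null mice was positive (0.20). Serpind1 (ENSMUSG00000022766.6, GRCm38 chromosome 16, 17331371 to 17343575, plus strand), heparin cofactor II, which inhibits thrombin in the vessel wall, had 147 ± 6.93 FPKM in NDWT and 160.3 ± 14.1 in HFWT, and 141 ± 21.4 in NDKO and 177 ± 23.6 in HFKO. Its differences of 0.12 (SE 0.10, FDR 0.275) in WT and 0.33 (SE 0.10, FDR 0.0063) in null mice turned negative under median of ratios scaling (-0.44 and -0.21). Serpind1 lies inside Pi4ka on the opposite strand. Serpina10 (ENSMUSG00000061947.4, GRCm38 chromosome 12, 103616675 to 103631444, minus strand), the protein Z-dependent inhibitor of factor Xa, was called higher in null mice, from 69.8 ± 2.56 to 111 ± 11.4 FPKM (log2 0.66, SE 0.10, FDR 7.12e-06). That call was lost under median of ratios scaling (0.13, FDR 0.275), and WT mice gave 0.23 (SE 0.10, FDR 0.0406), negative under that scaling (-0.33, FDR 0.00715). For 13 clotting factors and cofactors of the thrombin pathway the medians were -0.14 in WT and -0.07 in null mice. In WT 3 were called higher and in null mice 4, with 0 lower in either. These shares lay under the 44.1% and 41.9% of all tested genes called higher. The 3 in WT were the endothelial protein C receptor Procr (log2 2.61, SE 0.24, FDR 1.24e-08), the tissue factor pathway inhibitor Tfpi (log2 0.89, SE 0.12, FDR 1.02e-06) and tissue factor F3 (log2 0.79, SE 0.13, FDR 1.97e-05).

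Of the 4 inhibitors of plasmin and its activators, 2 were tested and neither was called for diet. Serpinf2 (ENSMUSG00000038224.6, GRCm38 chromosome 11, 75431732 to 75439591, minus strand), α2-antiplasmin, the fast inhibitor of plasmin, did not pass that test in either genotype. It had 292 ± 16.3 FPKM in NDWT and 294 ± 30.6 in HFWT (log2 0.01, SE 0.08, FDR 0.955), and 366 ± 35.4 in NDKO and 358 ± 29.5 in HFKO (log2 -0.03, SE 0.08, FDR 0.747). The WT sign was negative under median of ratios scaling (-0.56), and the null sign positive under quantile normalization (0.10). Serpine2, protease nexin-1, an inhibitor of thrombin and urokinase on cell surfaces, had 3.97 ± 0.48 FPKM in NDWT and 6.0 ± 1.44 in HFWT, and 4.56 ± 2.33 in NDKO and 5.21 ± 0.8 in HFKO, and was not called. Of 12 genes for plasminogen activation and fibrinolysis, 5 were called higher and 0 lower in each genotype, near the 44.1% and 41.9% of all tested genes called higher in WT and null mice, and the list's median of -0.0043 in WT and 0.06 in null mice lay under that of all genes. The 4 with the lowest FDR in WT were the urokinase receptor Plaur (log2 4.41, SE 0.21, FDR 1.46e-12), tissue plasminogen activator Plat (log2 5.16, SE 0.24, FDR 1.58e-12), the plasminogen receptor subunit Anxa2 (log2 3.59, SE 0.17, FDR 1.6e-12) and urokinase Plau (log2 3.56, SE 0.24, FDR 1.54e-10). Mean Plat went from 0.125 FPKM in NDWT to 7.48 in HFWT, and was 0.186 in NDKO. Plat could pass the filter only with CDAHFD libraries, which favoured a higher call. Of 7 genes for serpin clearance and cofactors, among them the uptake receptor Lrp1 and the adhesion protein vitronectin, 3 were called higher and 0 lower in WT, and 3 higher and 1 lower in null mice. The higher calls were again near the share of all tested genes called higher, while 4.62% of all tested genes in WT and 4.0% in null mice were called lower.

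**Figure D3:**
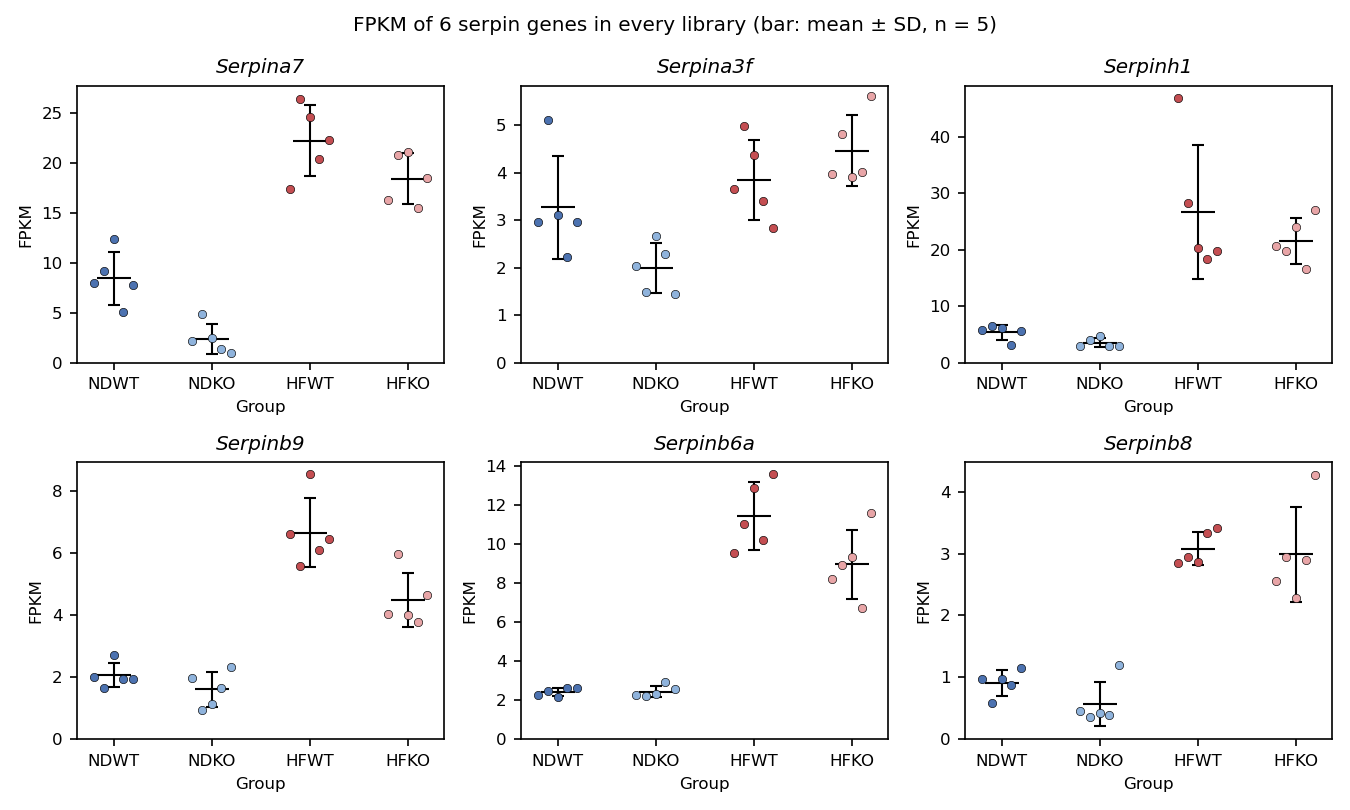
FPKM (vertical axes, from 0) of Serpina7, Serpina3f, Serpinh1, Serpinb9, Serpinb6a and Serpinb8 in each of the 20 libraries by group, with bars for the mean ± SD of 5 mice. Serpina7 is lowest in the libraries labelled NDKO and higher in both CDAHFD groups, and 1 HFWT library holds 46.8 FPKM of Serpinh1.

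Serping1 (ENSMUSG00000023224.6, GRCm38 chromosome 2, 84765387 to 84775444, minus strand), the C1 inhibitor, which restrains the complement proteases C1r and C1s and also plasma kallikrein, had lower values on CDAHFD. It had 354 ± 12.8 FPKM in NDWT and 252 ± 34.6 in HFWT, and 362 ± 32.2 in NDKO and 240.5 ± 31.4 in HFKO. The values did not overlap between diets in either genotype. The difference of -0.59 (SE 0.10, FDR 2.55e-05) in null mice was called, although not without NDKO replicate 1 (-0.55) or HFKO replicate 4 (-0.52) or under quantile normalization (-0.49). That of -0.50 (SE 0.10, FDR 0.000147) in WT missed the fold threshold and was called under median of ratios scaling (-1.06, FDR 1.08e-08). Over all tested genes 44.1% were called higher and 4.62% lower in WT, and 41.9% and 4.0% in null mice. Of 8 tested complement genes of the C1 and lectin routes, 3 were called higher and 3 lower in WT, and 3 higher and 2 lower in null mice. Higher in WT were, among others, the C1q chains C1qb (log2 1.91, SE 0.19, FDR 3.83e-08) and C1qc (log2 1.53, SE 0.19, FDR 6.47e-07), which macrophages make. Lower were the liver-made Masp2 (log2 -0.60, SE 0.06, FDR 2.12e-08) and Mbl1 (log2 -0.63, SE 0.07, FDR 3.52e-07). Serpinf1 (ENSMUSG00000000753.9, GRCm38 chromosome 11, 75409769 to 75422701, minus strand), pigment epithelium-derived factor, a secreted serpin that inhibits no protease and restrains vessel growth, was called lower in both genotypes. It went from 262 ± 19.99 to 157 ± 19.3 FPKM in WT (log2 -0.74, SE 0.08, FDR 8.6e-08) and from 288 ± 14.8 to 176 ± 8.997 in null mice (log2 -0.71, SE 0.08, FDR 1.84e-07), with no overlap.

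**Figure D4:**
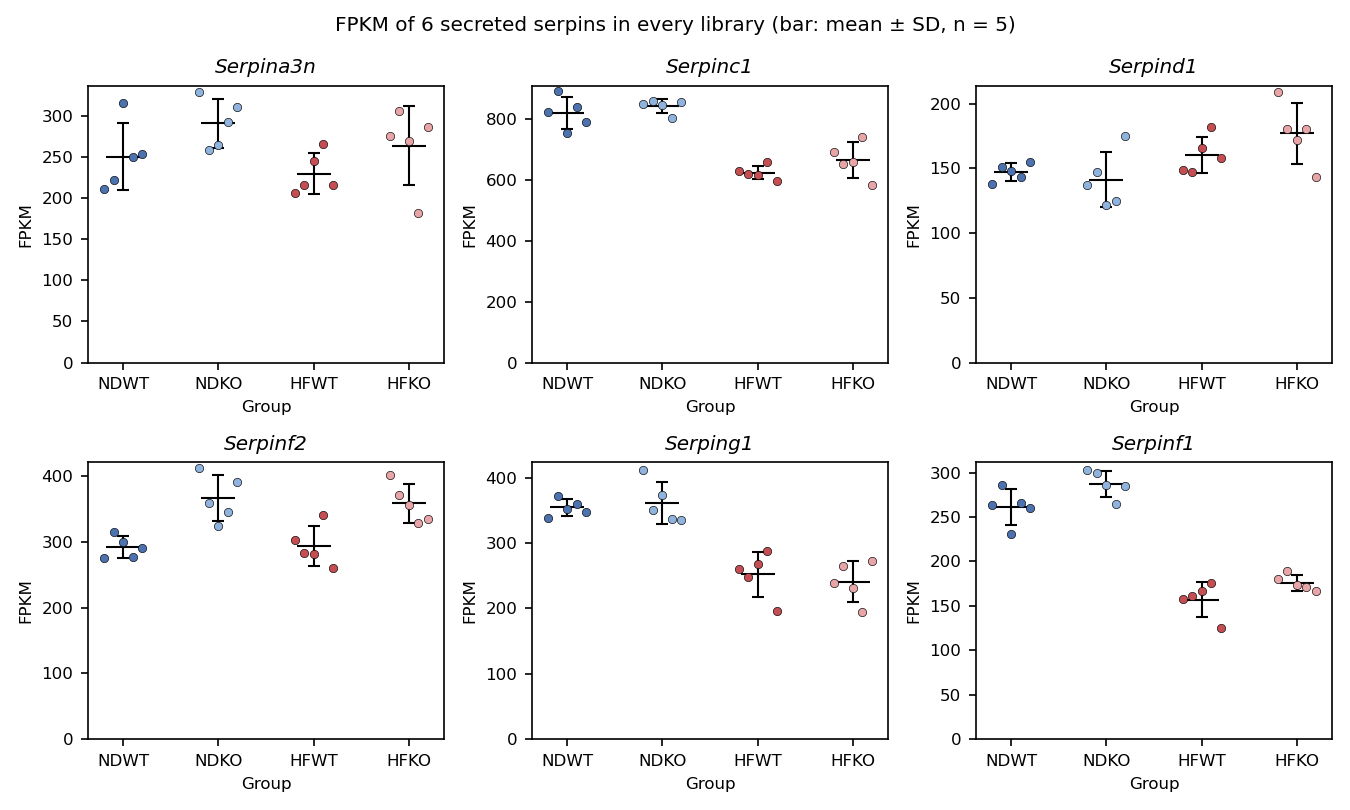
FPKM (vertical axes, from 0) of Serpina3n, Serpinc1, Serpind1, Serpinf2, Serping1 and Serpinf1 in each of the 20 libraries by group, with bars for the mean ± SD of 5 mice. Serping1 and Serpinf1 lie lower in both CDAHFD groups, and Serpinf2 has means of 366 and 358 FPKM in the groups labelled null against 292 and 294 in WT.

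Serpinh1 (ENSMUSG00000070436.5, GRCm38 chromosome 7, 99345375 to 99353230, minus strand) encodes HSP47, a chaperone of the endoplasmic reticulum that binds procollagen and inhibits no protease. It read 5.72, 6.398, 6.07, 3.04 and 5.58 FPKM in NDWT and 46.8, 28.2, 20.4, 18.3 and 19.8 in HFWT. It read 2.96, 3.96, 4.63, 3.01 and 2.86 in NDKO and 20.6, 19.8, 23.9, 16.5 and 27.1 in HFKO. Every CDAHFD library lay above every control diet library, and HFWT library 1 stood well above the rest. The log2 difference of Serpinh1 was 2.24 (SE 0.24, FDR 7.37e-08) in WT and 2.6 (SE 0.24, FDR 1.16e-08) in null mice. Among all tested genes 44.1% were called higher in WT and 41.9% in null mice. Of 13 genes for collagen chains and collagen folding, 9 were called higher in WT and 12 in null mice, and 0 were lower in either, with medians of 2.5 and 2.17. They included Col1a1, the main fibrillar collagen of scars (log2 5.26, SE 0.30, FDR 1.69e-11), Col1a2 (log2 4.20, SE 0.19, FDR 1.21e-12), Col3a1 (log2 4.46, SE 0.21, FDR 2.15e-12) and Col5a2 (log2 3.94, SE 0.19, FDR 2.15e-12). Col5a2 had means of 0.233 FPKM in NDWT and 0.234 in NDKO. It could pass the filter only with CDAHFD libraries, which favoured a higher call. All 8 stellate cell and myofibroblast markers, with Col1a1 and Col3a1 again among them, were called higher in both genotypes. Their summed FPKM was 48.8 to 68.3 in the control diet libraries and 264 to 511 in the CDAHFD libraries. In bulk tissue a change in the number of cells of a type and a change in RNA per cell cannot be told apart, and the part of the marker changes in the serpin results was not tested.

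Clade B serpins act inside cells, many of them in leukocytes, where they guard against the cell's own granule proteases. Of 26 such genes 5 were tested, leaving out Serpinb2, which was counted with the inhibitors of plasmin and its activators. In both genotypes 4 of the 5 were called higher and 1 lower. Of all tested genes 44.1% in WT and 41.9% in null mice were called higher, and 4.62% and 4.0% lower. Serpinb6a (ENSMUSG00000060147.9, GRCm38 chromosome 13, 33917918 to 34002794, minus strand), an inhibitor of cathepsin G, read 2.26, 2.45, 2.17, 2.596 and 2.64 FPKM in NDWT and 9.54, 11.04, 12.9, 10.2 and 13.6 in HFWT. It read 2.25, 2.19, 2.29, 2.903 and 2.56 in NDKO and 8.22, 8.91, 9.34, 6.74 and 11.6 in HFKO. The diets were far apart with narrow spread in each. Its log2 difference was 2.19 (SE 0.13, FDR 1.82e-11) in WT and 1.82 (SE 0.13, FDR 2.55e-10) in null mice. Nqo2 and Ripk1 overlap Serpinb6a on the opposite strand.

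Serpinb6b (ENSMUSG00000042842.4, GRCm38 chromosome 13, 32965209 to 32979067, plus strand), its close relative, read 1.91, 2.42, 1.71, 1.298 and 2.05 FPKM in NDWT and 9.22, 6.49, 8.41, 7.47 and 6.78 in HFWT. It read 1.65, 0.92, 1.75, 1.25 and 2.61 in NDKO and 3.31, 6.48, 3.66, 2.76 and 8.06 in HFKO. The diets did not overlap, and the HFKO libraries spread more widely than the HFWT libraries. The difference was 1.99 (SE 0.27, FDR 1.94e-06) in WT and 1.47 (SE 0.27, FDR 7.22e-05) in null mice. Serpinb9 (ENSMUSG00000045827.4, GRCm38 chromosome 13, 33003250 to 33017957, plus strand), the granzyme B inhibitor that protects cytotoxic lymphocytes and other cells, read 2.02, 1.66, 2.72, 1.95 and 1.95 FPKM in NDWT and 6.62, 5.604, 8.55, 6.11 and 6.46 in HFWT. It read 1.97, 0.932, 1.15, 1.65 and 2.32 in NDKO and 4.06, 5.96, 4.01, 3.78 and 4.67 in HFKO, again with no overlap between diets. The difference was 1.65 (SE 0.20, FDR 3.72e-07) in WT and 1.48 (SE 0.20, FDR 1.66e-06) in null mice. Serpinb8 (ENSMUSG00000026315.7, GRCm38 chromosome 1, 107590006 to 107608909, plus strand), an inhibitor of the convertase furin, read 0.974, 0.577, 0.977, 0.869 and 1.15 FPKM in NDWT and 2.84, 2.95, 2.87, 3.33 and 3.41 in HFWT. It read 0.451, 0.355, 0.415, 0.389 and 1.198 in NDKO, where 1 library stood above the other 4, and 2.56, 2.94, 2.28, 2.89 and 4.27 in HFKO. Every CDAHFD library lay above every control diet library. The difference was 1.68 (SE 0.24, FDR 3.06e-06) in WT and 2.32 (SE 0.24, FDR 5.26e-08) in null mice.

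Serpinb1a (ENSMUSG00000044734.9, GRCm38 chromosome 13, 32842092 to 32851185, minus strand), an inhibitor of neutrophil elastase, cathepsin G and proteinase-3, was the clade B gene that fell. It read 2.3, 2.34, 2.78, 3.15 and 4.33 FPKM in NDWT and 1.12, 1.67, 1.32, 1.32 and 2.32 in HFWT. It read 4.31, 3.62, 3.03, 3.99 and 3.997 in NDKO and 1.45, 1.74, 1.402, 0.599 and 1.35 in HFKO. The null groups did not overlap, and in WT 1 HFWT library reached into the NDWT range. The difference was -0.91 (SE 0.23, FDR 0.00165) in WT and -1.53 (SE 0.23, FDR 8.47e-06) in null mice.

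**Figure D5:**
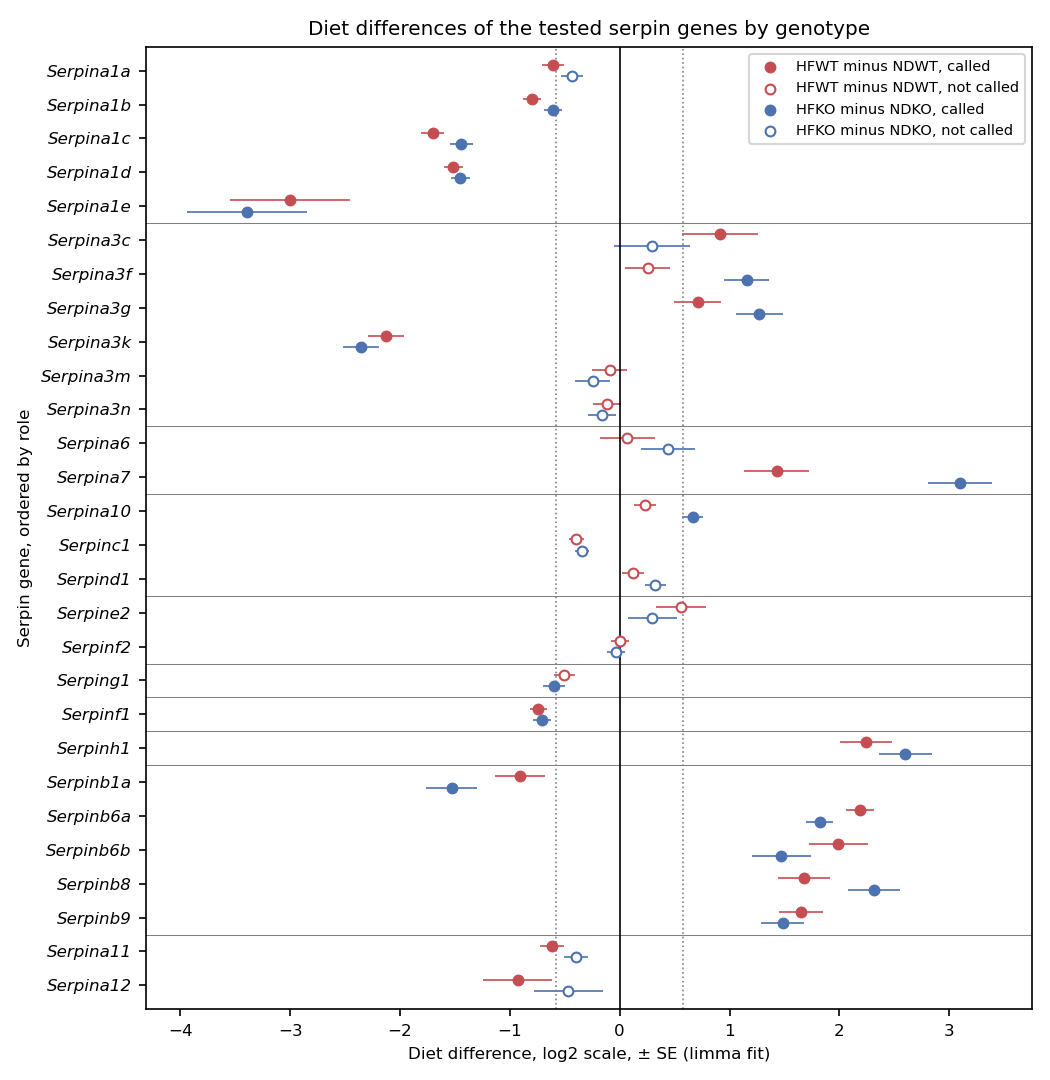
Log2 difference between CDAHFD and control diet (horizontal axis, ± SE of the limma fit) for the 28 tested serpin genes (vertical axis, ordered by role), with filled points for called genes, open points for the rest and dotted lines at the fold threshold of 0.58. The 18 calls in WT and 17 in null mice run from Serpina1e at -3.0 and -3.39 to Serpinh1 at 2.24 in WT and Serpina7 at 3.09 in null mice.

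Leukocyte markers moved beside the clade B genes. Of 5 macrophage markers 4 were called higher and 1, the Kupffer cell gene Clec4f, lower in both genotypes, and their summed FPKM was 115 to 194 in control diet libraries and 653 to 1447 in CDAHFD libraries. All 4 tested neutrophil markers of 7, 5 of 7 tested T and NK cell markers of 8 and 4 of 4 B cell markers were called higher in each genotype. Of all tested genes 44.1% were called higher in WT and 41.9% in null mice. Ngp, Cd8a and Ms4a1 reached at most 0.239, 0.364 and 0.439 FPKM on control diet. They passed the filter through CDAHFD libraries alone, so the filter favoured higher calls among such markers. Ly6g, the defining neutrophil marker, was at 0 in every NDWT and HFWT library and reached at most 0.602 FPKM in HFKO. Cholangiocyte markers were called higher for 5 of 5 genes, with sums of 12.4 to 18.0 FPKM on control diet and 181 to 488 on CDAHFD. Of these, Krt7 reached at most 0.153 FPKM on control diet and likewise passed the filter through CDAHFD libraries alone. Endothelial markers were called for 0 of 4 genes in WT and 1 of 4, higher, in null mice, erythroid markers were lower for 1 of 3 and 2 of 3, and hepatocyte markers for 0 of 7 and 2 of 7. Lower calls made up 4.62% of all tested genes in WT and 4.0% in null mice. The part of these changes in the serpin results was not tested.

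The proteases that the intracellular serpins meet were measured as 2 lists. Of 13 granule proteases of neutrophils, mast cells and lymphocytes only 4 passed the filter, and 1, granzyme A (Gzma), also 1 of the T and NK cell markers, was called higher in both genotypes (log2 2.13, SE 0.42, FDR 0.000154 in WT). Their summed FPKM stayed at most 2.39 on control diet and 7.77 on CDAHFD. Gzma had means of 0.289 FPKM in NDWT and 0.266 in NDKO. It could pass the filter only with CDAHFD libraries, which favoured a higher call. Of 10 lysosomal cathepsins and legumain, 8 were called higher in WT and 7 in null mice, beside 44.1% and 41.9% of all tested genes. Lower calls were 0 in both, and the medians were 1.61 and 1.54. Cathepsin S, the antigen presentation protease Ctss, had a log2 difference of 3.53 (SE 0.18, FDR 3.18e-12), Ctsd 2.06 (SE 0.10, FDR 3.23e-12), Ctsb 1.48 (SE 0.08, FDR 1.11e-11) and the collagen-degrading Ctsk 4.27 (SE 0.24, FDR 1.17e-11) in WT. Protease inhibitors of other families were counted in the same way. Of 19 tested, 10 were called higher and 2 lower in WT and 9 higher and 2 lower in null mice, with medians of 0.59 and 0.62. Of all tested genes 44.1% and 41.9% were called higher and 4.62% and 4.0% lower, with medians of 0.53 and 0.50. The 4 inhibitors with the lowest FDR in WT all rose: cystatin B (Cstb, log2 2.25, SE 0.08, FDR 6.62e-14), Timp2 (log2 3.10, SE 0.14, FDR 1.22e-12), the metalloproteinase inhibitor Timp1 (log2 5.18, SE 0.27, FDR 5.01e-12) and Spint1 (log2 4.08, SE 0.23, FDR 1.61e-11). Timp1 and Spint1 had means of at most 0.146 FPKM in NDWT and NDKO. Both could pass the filter only with CDAHFD libraries, so the filter favoured higher calls among such genes.

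The remaining tested members were Serpina11 and Serpina12, the latter the adipokine vaspin. Serpina11 (ENSMUSG00000063232.10, GRCm38 chromosome 12, 103980243 to 103989957, minus strand) went from 21.2 ± 1.51 to 13.9 ± 2.59 FPKM in WT (log2 -0.61, SE 0.11, FDR 4.73e-05), a call lost without NDWT replicate 2 (-0.57) or HFWT replicate 5 (-0.54). In null mice Serpina11 went from 21.6 ± 2.001 to 16.5 ± 2.22 FPKM. Its difference there of -0.40 (SE 0.11, FDR 0.00306) missed the fold threshold and was called under median of ratios scaling (-0.93, FDR 2.7e-07). Serpina12 (ENSMUSG00000041567.3, GRCm38 chromosome 12, 104028769 to 104044443, minus strand) was called lower in WT (log2 -0.93, SE 0.31, FDR 0.0124), from 19.6 ± 6.39 to 10.02 ± 2.65 FPKM, with overlap. In null mice Serpina12 had 10.4 ± 2.74 FPKM on control diet and 8.095 ± 3.97 on CDAHFD and was not called, although it was under median of ratios scaling (-0.9983, FDR 0.00892).

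Below the filter, a few sparsely counted genes had more fragments on CDAHFD. Serpinb9b, a relative of Serpinb9 on chromosome 13, had 1, 0, 0, 0 and 1 fragments in the NDWT libraries and 21, 22, 30, 21 and 12 in HFWT. It had 0, 0, 1, 1 and 0 in NDKO and 15, 6, 11, 6 and 20 in HFKO. Against the floor of 3 fragments per library it was at least 6.94-fold higher on CDAHFD in WT and at least 3.91-fold higher in null mice. Serpini1, neuroserpin, an inhibitor of tissue plasminogen activator, had 1, 1, 3, 6 and 4 fragments in NDWT and 20, 16, 29, 9 and 24 in HFWT, and 5, 3, 1, 2 and 2 in NDKO and 17, 14, 18, 9 and 24 in HFKO. Serpina3i had 0, 3, 1, 2 and 4 fragments in NDWT and 12, 21, 22, 18 and 11 in HFWT. Serpinb12 had no fragment in the 10 control diet libraries and 1 to 8 in the CDAHFD libraries. A fit without the filter called these 4 genes higher in both genotypes and Serpina3b higher in null mice. It took in 17 of the 32 serpin genes below the filter. Over all 25536 genes of that fit, 8309 were called higher in WT and 7575 in null mice. Serpina9 held 9, 49, 7, 5 and 4 fragments in NDWT, where 1 library stood apart. Of the 26 clade B genes other than Serpinb2, 13 had no fragment in any library, which allows up to 3 fragments in each, and 16 never exceeded 3.

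Between genotypes on the control diet, 2 of the 28 tested serpin genes were called, both lower in the libraries labelled TSP-1 null, where 4.77% of all tested genes were called and 3.03% lower. This comparison asks what the loss of TSP-1 changes without the diet, and Thbs1 itself ran against the label here. Serpina7 had a difference of -1.93 (SE 0.29, FDR 0.000412), with no overlap between 0.97 to 4.82 FPKM in NDKO and 5.02 to 12.3 in NDWT. Serpina3f read 2.96, 5.102, 3.12, 2.21 and 2.96 FPKM in NDWT and 2.03, 1.48, 2.66, 2.29 and 1.45 in NDKO. These values overlapped, and its difference of -0.68 (SE 0.20, FDR 0.0315) was not called under 10 of 22 alternatives. Among these were the fits without NDWT replicate 2 (-0.51), 3 (-0.68) or 5 (-0.70) and without NDKO replicate 1 (-0.6965), 2 (-0.59) or 5 (-0.58). The count was 1, Serpina7, without NDWT replicate 3 or 5 or NDKO replicate 2. The groups did not overlap for 5 of the 28 genes, against 9.03% of all tested genes.

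The abundant plasma serpins showed small genotype differences on the control diet. Among the α1-antitrypsin genes the log2 differences were 0.19 (SE 0.10, FDR 0.228) for Serpina1a, 0.09 (SE 0.08, FDR 0.547) for Serpina1b and -0.10 (SE 0.10, FDR 0.599) for Serpina1c. Serpina1d had a log2 difference of 0.11 (SE 0.08, FDR 0.44) and Serpina1e 0.97 (SE 0.55, FDR 0.266). None of the 5 was called, although every NDKO library held more Serpina1e and more Serpina1a than every NDWT library. Serpina3k had a log2 difference of -0.04 (SE 0.16, FDR 0.918) and Serpina3n 0.22 (SE 0.13, FDR 0.275). The antithrombin gene Serpinc1 had a log2 difference of 0.04 (SE 0.06, FDR 0.732) and Serpind1 -0.07 (SE 0.10, FDR 0.713). Serping1 had a log2 difference of 0.03 (SE 0.10, FDR 0.9), Serpinf1 0.14 (SE 0.08, FDR 0.275) and the collagen chaperone Serpinh1 -0.59 (SE 0.24, FDR 0.111). Serpinf2, the plasmin inhibitor, passed the FDR threshold at 0.32 (SE 0.08, FDR 0.0116) and stayed inside the fold threshold. Serpina10, lower in NDKO with no overlap, did the same (log2 -0.49, SE 0.10, FDR 0.00351). Without NDWT replicate 4, the library lowest in Serpinh1 and Thbs1 of its group, the count of called serpin genes rose from 2 to 5, with Serpina3g, Serpina12 and Serpinh1 added.

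On CDAHFD none of the 28 serpin genes was called between genotypes by limma, where 0.496% of all tested genes were called. An unadjusted p under 0.05 was found for 8 of them and for 17.2% of all tested genes. The groups did not overlap for 1 of the 28, Serpina1b, against 4.98% of all tested genes. Serpinh1 had a log2 difference of -0.23 (SE 0.24, FDR 0.64). The α1-antitrypsin genes had log2 differences of 0.36 (SE 0.10, FDR 0.0761) for Serpina1a, 0.27 (SE 0.08, FDR 0.108) for Serpina1b, 0.16 (SE 0.10, FDR 0.436) for Serpina1c, 0.17 (SE 0.08, FDR 0.295) for Serpina1d and 0.57 (SE 0.55, FDR 0.614) for Serpina1e. Each of these 5 had its higher mean in HFKO, but as near copies they may not be independent results. Serpina3k had a log2 difference of -0.26 (SE 0.16, FDR 0.408) and Serpina3n 0.18 (SE 0.13, FDR 0.482). Serpinc1 had a log2 difference of 0.09 (SE 0.06, FDR 0.49), Serpind1 0.14 (SE 0.10, FDR 0.493) and Serpinf2 0.29 (SE 0.08, FDR 0.0851). Serpinf1 had a log2 difference of 0.17 (SE 0.08, FDR 0.272) and Serping1 -0.07 (SE 0.10, FDR 0.764). Serpinb6a, Serpinb6b and Serpinb9 had lower means in HFKO than in HFWT and were not called, with differences of -0.36, -0.76 and -0.56 and FDR 0.152, 0.16 and 0.153.

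The diet difference itself was compared between genotypes through the interaction term, and limma called it for 0 of the 28 serpin genes, where 0.647% of all tested genes were called. An unadjusted p under 0.05 was found for 3 of them, Serpina7, Serpina3f and Serpina10, and for 15.1% of all tested genes. Serpina7 came closest to the threshold, with a term of 1.67 (SE 0.41, FDR 0.0566). The genotypes differed in Serpina7 by -1.93 on control diet and by -0.27 on CDAHFD. It was called under median of ratios scaling (1.70, FDR 0.0437), with the replicate block, and without NDWT replicate 4 or NDKO replicate 2, the count of called genes being 1 in each. The terms of the abundant members were not called. On the log2 scale they were 0.18 (SE 0.14, FDR 0.598) for Serpina1a, 0.18 (SE 0.12, FDR 0.49) for Serpina1b, 0.26 (SE 0.15, FDR 0.429) for Serpina1c, 0.07 (SE 0.12, FDR 0.852) for Serpina1d and -0.40 (SE 0.77, FDR 0.866) for Serpina1e. Serpina3k had -0.23 (SE 0.23, FDR 0.691), Serpina3n -0.04 (SE 0.18, FDR 0.945) and Serpinh1 0.36 (SE 0.34, FDR 0.672). Serpinc1 had 0.05 (SE 0.09, FDR 0.862), Serpind1 0.20 (SE 0.14, FDR 0.533), Serpinf1 0.03 (SE 0.11, FDR 0.928), Serpinf2 -0.04 (SE 0.11, FDR 0.926) and Serping1 -0.09 (SE 0.14, FDR 0.819). The comparison of genotypes on the control diet and both diet comparisons share libraries with this term.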

How the data were processed

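Poly(A) RNA of 20 mouse livers was made into directional libraries and sequenced in pairs of 150 bases. The authors deposited 1 table of FPKM values per gene, made with QuickRNASeq per the paper's methods. The submitters' processing notes name STAR 2.5.2, featureCounts and Subread 1.5.1, and a human build, GRCh38, while the coordinates of the table are those of mouse GRCm38. The strand setting of the counting is not given in the sources used here. Fragments were worked back from FPKM and the length column, and 100% of values came out whole within 0.1. At this depth 3 fragments on a gene of 1 kb are 0.129 to 0.192 FPKM, a floor that covers counting error only.

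The filter on low values asked for FPKM above 0.5 in 5 or more libraries (14524 genes). Limma 3.58.1 in R 4.3.3 was fitted on log2(FPKM + 0.1), which understates changes of low genes, with 1 mean per group, all 20 libraries together and moderated variances with a mean trend. Calls needed a Benjamini-Hochberg FDR (two-sided) under 0.05 and a log2 difference over 0.58. The procedure was tested on simulated data, with changes planted in a small set of genes in HFWT alone. That test does not cover a shift of most genes between diets. The 5 comparisons share libraries. Groups and replicate numbers are from the labels, and each library is taken as 1 mouse. Alternatives were other pseudocounts, filters, scalings, variance models and samples in the fit, a replicate block, no fold threshold and each library left out.

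Statistics were printed for serpin genes called in a comparison, and in every comparison for those with mean FPKM above 100 and for Serpinh1. Values in every library were printed for Serpinh1, Serpina3n, Serpina1e, Serpinb9, the 3 called genes with the largest rise and fall in each diet comparison and those called between genotypes or in the interaction. Of each list of partner genes at most the 4 called genes with the lowest FDR in WT were named. The members, lists and rules were chosen with earlier results of these data known. Loop windows are from GENCODE M21 transcripts and promoter windows from RefSeq, which held 52 of the 60 genes. A further gene that meets the rule is not reported here and entered no serpin count.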

Additional observations from a re-analysis of the deposited data

Results flagged for a closer look

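In 48 groups of 5 libraries, those of the serpin genes given in every library, the gap between the outermost value and its neighbour was compared with the range of the group, and 3 passed the critical value of 0.71, where chance passes about 1 in 20. Serpina3n was lowest in HFKO library 4 at 181 FPKM, the next value being 270.1 (gap over range 0.714). Serpinb8 was highest in NDKO library 5 at 1.198 FPKM, the next being 0.451 (0.886). Without that NDKO library the diet difference of Serpinb8 in null mice was 2.59 on the log2 scale, against 2.32 with it. Serpinh1 was lowest in NDWT library 4 at 3.04 FPKM, the next being 5.58 (0.756).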

How the results depend on the processing

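Of 37 called serpin values (log2 differences), 27 kept their direction and their call under every alternative run. Of 813 refits 781 kept both, 31 lost the call and 1 turned its direction. Among the uncalled values of Serpinh1 and of serpin genes with mean FPKM above 100, 13 refits of 9 values became called. Uncalled values outside that set became called too, such as those of Serpina3m by diet in both genotypes under median of ratios scaling. The cause was not tested. Between genotypes on control diet the 2 calls became 1 with a pseudocount of 1, with no filter, with quantile normalization and in a fit of only the groups compared, 4 with no fold threshold (1 higher, 3 lower) and 1 to 5 when each library was left out. The interaction went from 0 calls to 1, Serpina7, with median of ratios scaling and with the replicate block, and to 0 to 1 when each library was left out; it has no value in fits of only the groups compared. On CDAHFD no alternative gave a serpin call between genotypes. Over all genes, calls on CDAHFD in WT were 6412 higher and 671 lower, against 3299 and 2242 with median of ratios scaling, 2514 and 2562 with quantile normalization and 9355 and 1268 with no fold threshold. Replicate numbers did not pair the mice: of 20 pairs of libraries with the same number 0 correlated above 0.1 (-0.133 to 0.081), and the replicate block gave 18, 17, 3 and 0 serpin calls in the 4 comparisons.

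Signs of uncalled values turned with median of ratios scaling for Serpinf2, Serpind1, Serpina6, Serpina10 and Serpina3f by diet in WT (-0.56, -0.44, -0.49, -0.33 and -0.29), for Serpind1, Serpina6, Serpine2 and Serpina3c by diet in null mice (-0.21, -0.093, -0.23 and -0.13), for Serpind1 and Serpina3k by genotype on control diet (0.0077 and 0.040) and for Serping1, Serpinb8, Serpina10 and Serpina3g by genotype on CDAHFD (0.036, 0.028, 0.044 and 0.051). The turns that follow were read for called serpin values, for serpin genes with mean FPKM above 100 and for Serpinh1. Signs turned with quantile normalization for the called Serpina3c by diet in WT (-0.60), for Serpina1a, Serpinc1 and Serpinf2 by diet in null mice (0.21, 0.20 and 0.10), for Serpina3k, Serpinc1 and Serpina1b by genotype on control diet (0.0002, -0.065 and -0.0077) and for Serpinf2 in the interaction (0.012). With each library left out, uncalled values crossed 0 for Serpinf2 by diet in WT (-0.050 to 0.049) and null mice (-0.073 to 0.014), Serpina3k (-0.10 to 0.0080) and Serping1 (-0.022 to 0.053) by genotype on control diet, Serping1 by genotype on CDAHFD (-0.15 to 0.0096), and in the interaction for Serpina1e (-0.80 to 0.13), Serpina3n (-0.13 to 0.086), Serpinf2 (-0.079 to 0.020) and Serpinf1 (-0.047 to 0.079).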
